A study of Macaca mulatta with 2 samples.

Results

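The nuclear-encoded genes of oxidative phosphorylation were chosen by symbol alone, as every feature whose name began with NDUFA, NDUFB, NDUFC, NDUFS, NDUFV, UQCR, COX4, COX5, COX6, COX7, COX8 or ATP5. This gave 74 genes of 26533 features, hereafter the members. They comprised 30 genes of complex I, 8 complex I assembly factors, 5 of complex III, 14 of complex IV, 14 of ATP synthase (complex V), NDUFA4 with its paralog NDUFA4L2, and the ATP synthase inhibitor ATP5IF1. They were measured by Visium, which captures polyadenylated RNA on an array of barcoded spots under a tissue section and counts molecules as unique molecular identifiers (UMIs). The 2 sections, 1 per animal, were full-thickness punches of retina, choroid and sclera from an uninjected area of the right eye of male rhesus macaques (Macaca mulatta). NHP1 was 5 years old and the eye had received subretinal AAV2-CAG-hRPE65, a vector with a ubiquitous promoter. NHP2 was 6 years old and the eye had received AAV8-GRK1-mScarlet and AAV8-GRK1-hRPGR, with a photoreceptor promoter, as separate blebs. Both animals were wild type, and per the study's methods each eye also received subtenon triamcinolone at surgery. The uninjected areas therefore lay in treated eyes, and no untreated eye was analysed here. The sample description names fresh frozen tissue, whereas the extraction protocol speaks of earlier fixation in paraformaldehyde.

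Oxidative phosphorylation passes electrons through 4 respiratory complexes of the inner mitochondrial membrane and uses the resulting proton gradient to make ATP in the fifth. Most subunits are encoded in the nucleus and imported, while the catalytic core of complexes I, III and IV and part of ATP synthase are encoded in mitochondrial DNA. In the retina, photoreceptors pack mitochondria into the inner segments, and ganglion cells carry many in their unmyelinated axons. The comparisons below concern where in the eye wall these transcripts were found. A spot covers a small region rather than a cell, so fewer cells and less RNA per cell cannot be told apart.

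NHP1 had 1484784 UMIs in 534 tissue spots (median 1473.5 per spot) and NHP2 had 805726 in 470 spots (median 370.5). Each spot was given the layer whose marker genes were most enriched in it, with no member among the markers, which left 66 and 188 spots unassigned. The unassigned spots of NHP2 held a median of 23.5 UMIs. Since these markers chose the spots, their levels describe the layers and do not test the names. Photoreceptor markers (25 genes) had 361 and 344.2 UMIs per 10000 in photoreceptor layer spots of NHP1 and NHP2, 148 and 193 in retinal pigment epithelium (RPE) spots, and 95.1 and 26.5 in sclera spots. Some layers held more of another list than of their own. Choroid spots of NHP1 had 46.2 of choroid markers, but 109 of photoreceptor and 87.9 of RPE markers, and those of NHP2 had 66.4 of choroid markers, but 197 of sclera markers, against 26.7 in NHP1. Inner nuclear layer spots of NHP2 had 77.9 of their own and 80.3 of photoreceptor markers. Such spots are mixed regions, named by their most enriched list. Of the assigned spots, 53 of 468 in NHP1 and 26 of 282 in NHP2 lay near the boundary between layers. All intervals are 95% intervals and cover counting error only. With 1 section per animal, no test was made.

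The members made up 3.69% of all tissue UMIs in NHP1 (54821 UMIs) and 3.48% in NHP2 (28061 UMIs). At least 1 UMI was counted for 73 members in NHP1 and 72 in NHP2. COX7A2L had none in either section. It overlaps another gene on the same strand in the RefSeq annotation, and whether its 0 reflects the tissue or the annotation was not tested. NDUFA4L2, a paralog known for its response to hypoxia, had 1 UMI in NHP1. In NHP2 it had 0 of 805726, which allows up to 0.0372 per 10000. At least 50 UMIs were counted for 69 and 65 members. NDUFA4, a small subunit first assigned to complex I and now placed in complex IV, was the most abundant, with 28.0 UMIs per 10000 in NHP1 and 25.9 in NHP2. It was followed by COX4I1, the common isoform of complex IV subunit 4, at 15.5 and 15.6. ATP5ME, the e subunit of ATP synthase, had 15.5 and 14.7, and ATP5F1E, the epsilon subunit of its catalytic part, had 15.05 and 14.8. The next 6 in order were COX6C, ATP5MG, COX7B, ATP5F1A, COX7C and NDUFA1, from 12.4 down to 9.40 per 10000 in NHP1 and from 11.8 down to 9.11 in NHP2. These levels are tags per molecule at the 3′ end and were not divided by transcript length. Several members have processed pseudogene copies, and reads shared with these could not be separated here.

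The summed level of the members followed the layers of the eye wall in both sections. In NHP1 it was 439 UMIs per 10000 in the photoreceptor layer (interval 432.1 to 445.7), 393 in the ganglion cell layer, 351 in the inner nuclear layer, 336 in the RPE, 305 in the choroid and 236 in the sclera (228 to 245). In NHP2 the same order held, with 439 in the photoreceptor layer (429 to 448), 419 in the ganglion cell layer, 391 in the inner nuclear layer, 370.2 in the RPE, 157 in the choroid and 122 in the sclera (116 to 128). Thus the photoreceptor layer had the same value in both animals, while the choroid and sclera of NHP1 stood above those of NHP2. In scleral spots without a photoreceptor marker UMI, an alternative chosen after seeing the data, the scleral levels were instead 115 in NHP1 (99.03 to 134) and 126 in NHP2 (109 to 144). The choroid spots differed in their photoreceptor markers (109 in NHP1, 50.2 in NHP2) and sclera markers (26.7 and 197), whose part in the choroid values was not tested. Neighbors in this order were close. The ganglion cell layer intervals were 386 to 399.8 in NHP1 and 411 to 428 in NHP2, and those of the inner nuclear layer and RPE overlapped in both (344 to 357 and 326 to 346 in NHP1, 382 to 401 and 356 to 385 in NHP2). The place of the photoreceptor layer at the top depended on the scale. With mitochondrially encoded genes left out of the total, an alternative chosen after seeing the data, the photoreceptor and ganglion cell layers had 465 and 446 in NHP1, but 448 and 473 in NHP2.

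**Figure D1:**
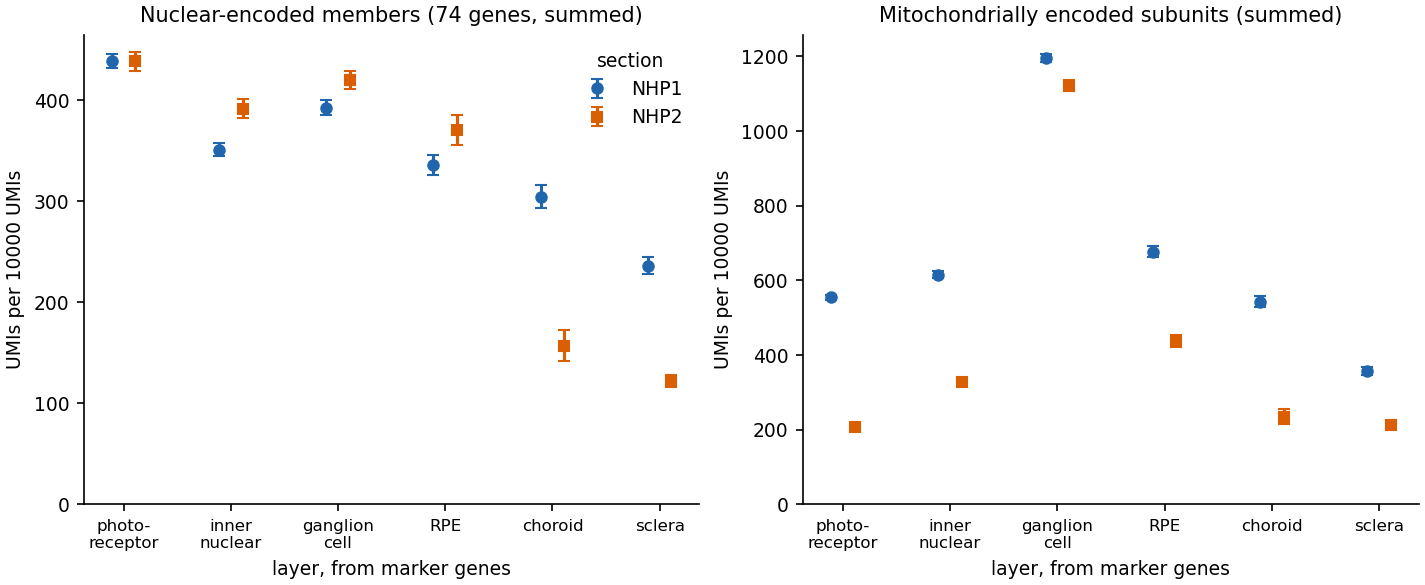
UMIs per 10000 UMIs (y axis) of the 74 members summed (left) and of the mitochondrially encoded subunits summed (right) in each marker-defined layer (x axis) of NHP1 (circles) and NHP2 (squares), with exact 95% intervals for counting error. The members ranged from 439 in the photoreceptor layer down to 236 and 122 in the sclera, whereas the mitochondrially encoded sum was highest in the ganglion cell layer, at 1196 and 1122.

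Single spots varied around these sums. Among photoreceptor layer spots with at least 200 UMIs, the lowest, median and highest levels were 250, 431 and 643 per 10000 in NHP1 (97 spots) and 294, 442 and 758 in NHP2 (24 spots). In the sclera they were 0, 181 and 555 in NHP1 (127 spots) and 21.0, 119 and 458 in NHP2 (139 spots). The highest scleral spots therefore lay within the range of the photoreceptor layer in both sections. The authors' Moran's I, a score of how far neighboring spots resemble each other, had a median over members of 0.083 in NHP1 and 0.0361 in NHP2, against medians near 0 over all genes scored (-0.000163 of 13804 genes and -0.000985 of 12542). The highest decile of all genes held 46 of 73 members in NHP1 and 32 of 72 in NHP2. The members were not compared with genes of similar abundance, so these scores do not set them apart from other abundant genes. NDUFA4 had the highest score of the members in NHP1 (0.379), and COX7C, a small subunit of complex IV, had the highest in NHP2 (0.212).

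**Figure D2:**
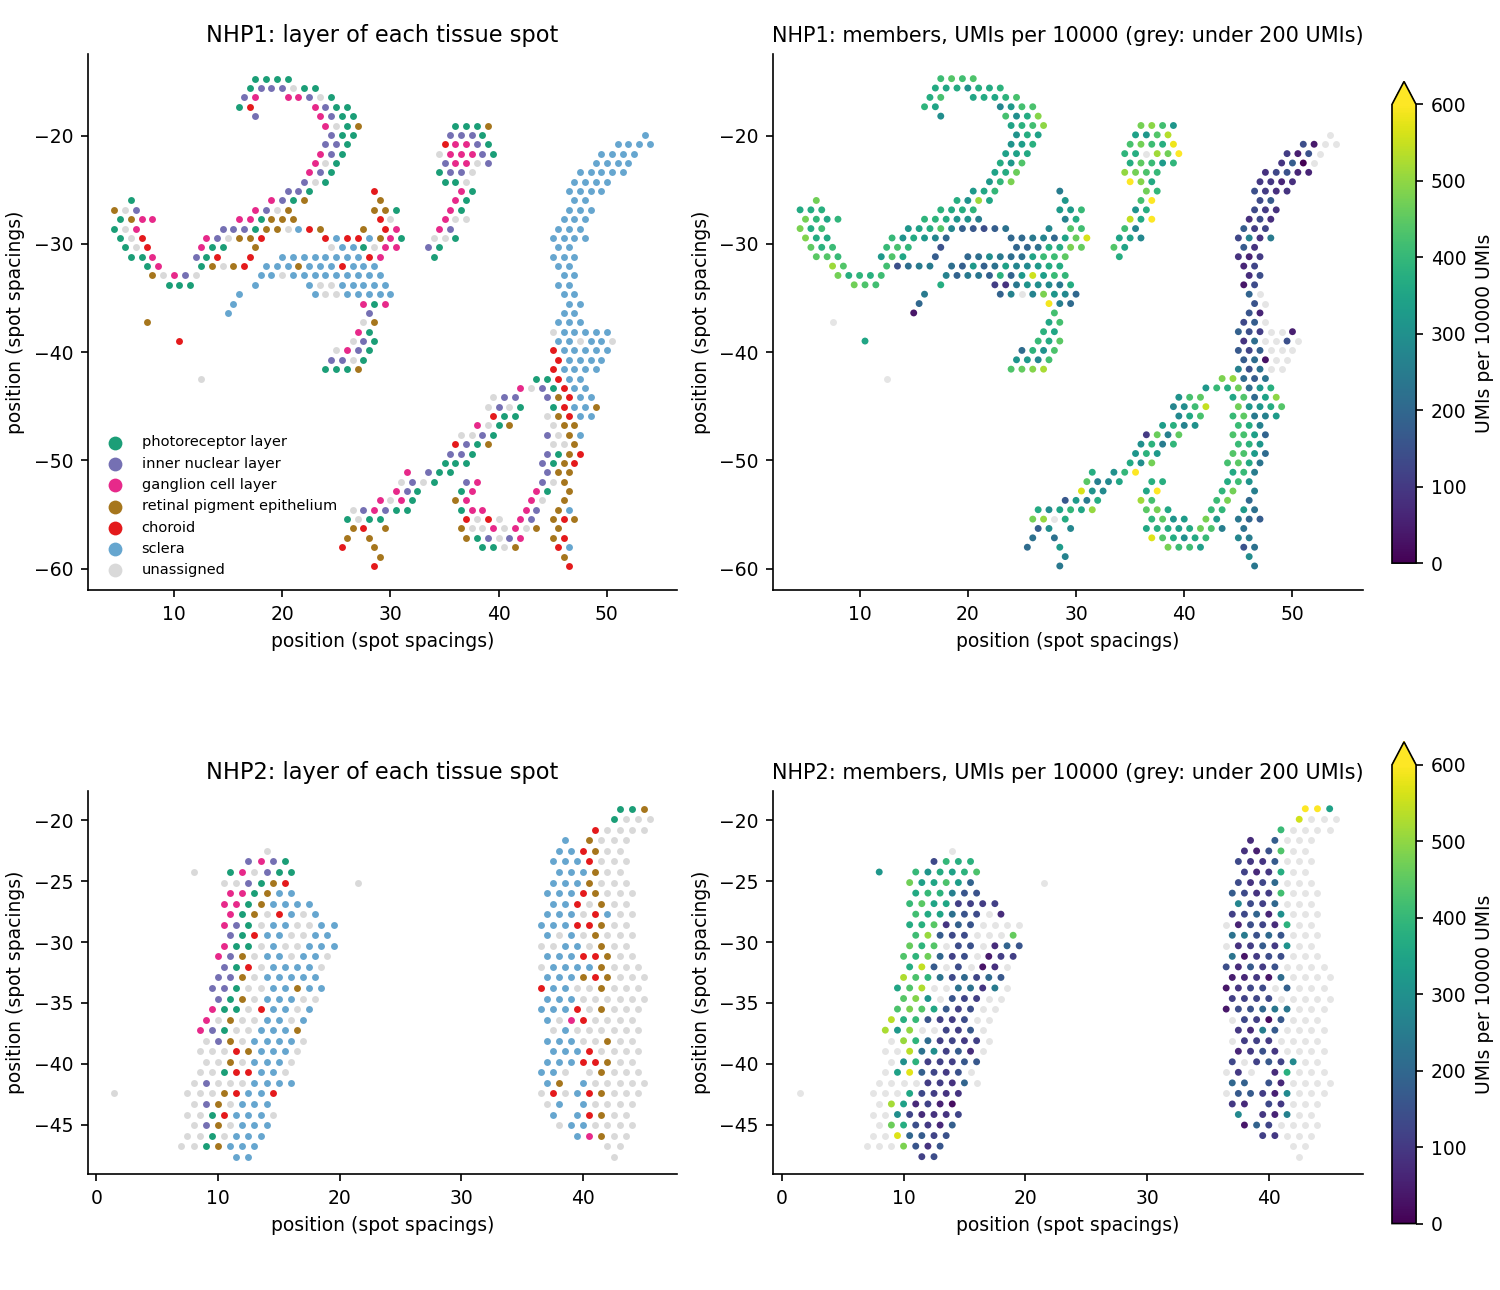
Tissue spots of NHP1 (top) and NHP2 (bottom) at their array positions (both axes in spot spacings), colored by marker-defined layer (left) and by the summed level of the members in UMIs per 10000 UMIs (right, color scale 0 to 600, spots under 200 UMIs in grey). Bands of retinal spots were bright and bands of sclera dark, with medians over spots of 431 and 181 in the photoreceptor layer and sclera of NHP1 and 442 and 119 in those of NHP2.

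The mitochondrially encoded subunits, which join the members in the same complexes, were distributed differently. Their sum was highest in the ganglion cell layer, at 1196 per 10000 in NHP1 and 1122 in NHP2. In the photoreceptor layer it was 555 and 207. Hence there were 0.791 member UMIs per mitochondrially encoded UMI in the photoreceptor layer of NHP1 and 2.12 in that of NHP2, but 0.328 and 0.374 in the ganglion cell layer. The summed members differed little between the animals in the neural retina (ratio of NHP2 to NHP1 0.999 in the photoreceptor layer, interval 0.972 to 1.03), while the mitochondrially encoded sum of the photoreceptor layer was lower in NHP2, at 0.374 of NHP1 (0.361 to 0.387). Animal, eye, vector, library and depth differed together between the sections and cannot be told apart.

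To ask which members followed the photoreceptors, their level in photoreceptor layer spots was divided by that in the inner retina, that is the inner nuclear and ganglion cell layers together. Summed over members this ratio was 1.18 in NHP1 (1.16 to 1.21) and 1.08 in NHP2 (1.05 to 1.11). Over all genes measured, that is those with at least 50 UMIs in both groups together, the median ratio was 1.02 and 1.07, and for the mitochondrially encoded sum it was 0.62 and 0.273. In NHP1, 11 of 66 members measured reached a ratio of at least 1.5, a share below the 19.6% of all genes, and none was 1.5-fold lower, against 20.9% of all genes. In NHP2, 6 of 63 members were at least 1.5-fold higher, where 22.9% of all genes were, and 2 were at least as much lower (COX8A and NDUFB8), where 20.6% of all genes were. Per spot rather than per 10000 UMIs the ratio was below 1, at 0.873 in NHP1 and 0.709 in NHP2.

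The highest ratios in both animals were those of COX6B2 and UQCRH. COX6B2 is an isoform of complex IV subunit 6B best known from testis. It had 2.28 UMIs per 10000 in the photoreceptor layer of NHP1 (79 UMIs) against 0.976 in the inner retina (59 UMIs), a ratio of 2.33 (1.64 to 3.33). In NHP2 it had 3.34 (60 UMIs) against 1.22 (44 UMIs), a ratio of 2.74 (1.82 to 4.13). UQCRH, the hinge protein of complex III, had 11.8 against 5.21 in NHP1, a ratio of 2.26 (1.94 to 2.62). In NHP2 it had 12.0 against 5.83, a ratio of 2.05 (1.69 to 2.50). Only 2 other members reached 1.5 in both animals, which makes 4 of 63 measured in both, against 14.4% of all genes. NDUFB1, an accessory subunit of complex I, had ratios of 1.65 (1.46 to 1.87) and 1.73 (1.46 to 2.04). NDUFAF3, a complex I assembly factor, had 1.51 (1.09 to 2.097) and 1.53 (1.001 to 2.33), and its level in the sclera and choroid of NHP1, 2.47 and 2.69, was above that in the photoreceptor layer, 2.08.

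The other high ratios were seen in 1 animal. In NHP1 there were 7, which included NDUFA10, an accessory subunit of complex I (1.76, against 0.939 in NHP2), and COX5A, a subunit of complex IV (1.67, against 1.25). In NHP2 they were UQCRC2, a core protein of complex III (1.59, against 1.44 in NHP1), and NDUFS3, a complex I subunit (1.54, against 1.22). Counted by intervals, 12 of 63 members lay above 1 in both animals, a share near the 16.4% of all genes. These were UQCRH, UQCRQ and UQCRC2 of complex III, NDUFB1, NDUFB5 and the assembly factor NDUFAF3 of complex I, ATP5ME, ATP5MG and ATP5PF of ATP synthase, and COX5A, COX6B2 and NDUFA4. COX4I1 was the only member below 1 by its interval in both, where 15.4% of all genes were, at 0.869 (0.781 to 0.967) and 0.762 (0.661 to 0.876). COX7C had 1.53 in NHP1 (1.35 to 1.73) but 0.98 in NHP2 (0.833 to 1.15), so that these intervals did not overlap. Across the 63 members measured in both sections, the log2 ratios had a Pearson r of 0.713 and a Spearman rho of 0.641. This is a description, since the members share their libraries and are not independent.

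**Figure D3:**
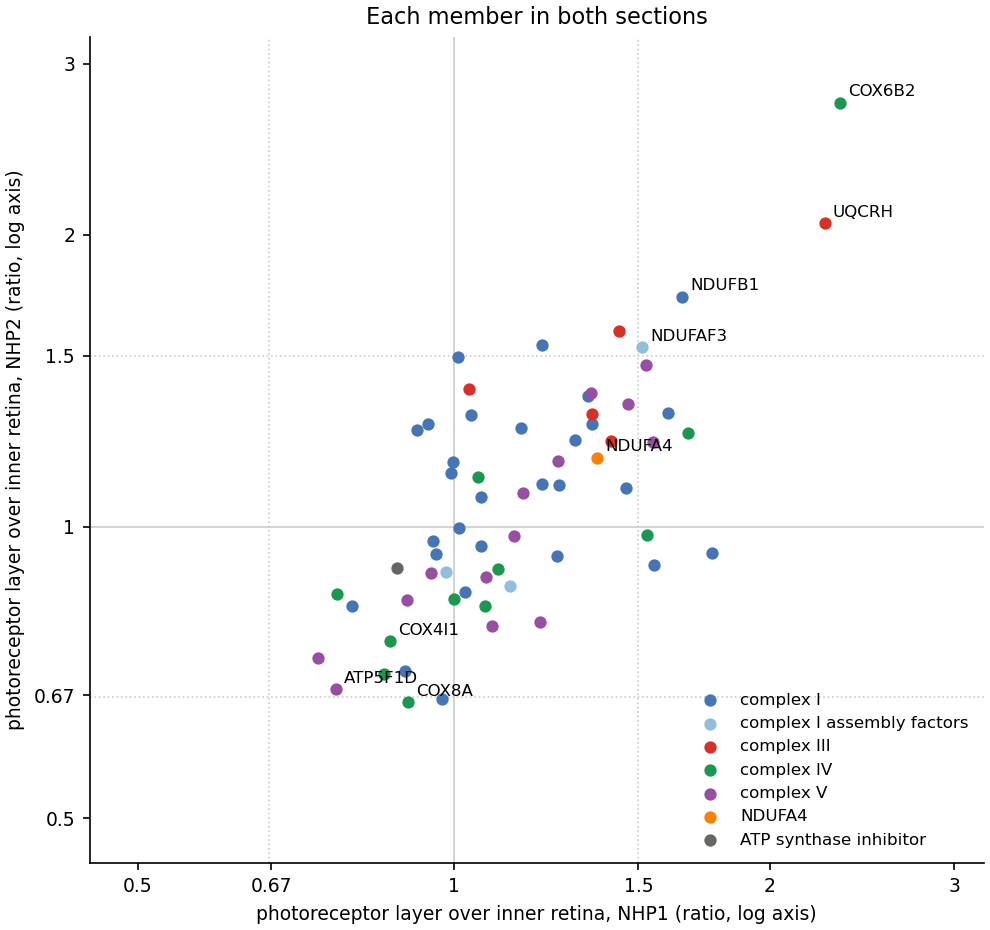
Ratio of the level in the photoreceptor layer to that in the inner retina for each of the 63 members with at least 50 UMIs in both sections, in NHP1 (x axis) and NHP2 (y axis), both on log axes and colored by complex. Solid lines mark a ratio of 1 and dotted lines 1.5-fold either way. COX6B2 (2.33 and 2.74) and UQCRH (2.26 and 2.05) lay apart from the rest, with NDUFB1 next (1.65 and 1.73).

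At the other end, the lowest ratios of NHP1 were those of ATP5MC2, a gene for the c ring of ATP synthase (0.743, interval 0.589 to 0.932), ATP5F1D, the delta subunit (0.773), COX6B1, the common partner isoform of COX6B2 (0.774, 0.643 to 0.929), NDUFV3, a complex I subunit (0.80), and COX7A1 (0.858). In NHP2 the lowest included COX8A, a small subunit of complex IV (0.659, 0.523 to 0.823), NDUFB8 of complex I (0.663, 0.45 to 0.96), ATP5F1D (0.68) and COX7A1 (0.704). ATP5F1D and COX7A1 were thus among the lowest in both animals, although each of their intervals included 1. ATP5IF1, which blocks ATP hydrolysis by the synthase, had 0.882 (0.75 to 1.04) and 0.906 (0.741 to 1.10).

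Among the sums by complex, complex III stood highest. Its 5 genes had a ratio of 1.54 in NHP1 (1.42 to 1.66) and 1.51 in NHP2 (1.37 to 1.67). UQCRH contributed most, but UQCRC2 and UQCRQ, the latter at 1.36 and 1.31, had intervals above 1 as well. UQCRB had 1.41 and 1.23 and UQCRC1 1.03 and 1.39. Complex I had 1.20 (1.15 to 1.24) and 1.12 (1.07 to 1.18), and ATP synthase 1.17 and 1.07. Complex IV, summed here without NDUFA4, was on different sides of 1 in the 2 animals. It had 1.07 in NHP1 (1.02 to 1.11) and 0.913 in NHP2 (0.861 to 0.968). NDUFA4, summed apart with NDUFA4L2, had 1.37 (1.27 to 1.47) and 1.18 (1.07 to 1.30). A sum of complex IV with NDUFA4 was not made, so the side of 1 holds only for this grouping. At least 1.5-fold higher were 4 of 30 measured genes of complex I in NHP1 and 2 of 28 in NHP2, 1 and 2 of 5 of complex III, 3 and 1 of 11 of complex IV, and 2 and 0 of 14 of ATP synthase, beside 19.6% and 22.9% of all genes. As a share of all member UMIs, complex III made up 7.97% and 8.71% in the photoreceptor layer against 6.05% and 5.82% in the ganglion cell layer. Complex IV without NDUFA4 made up 22.7% and 21.2% against 25.9% and 26.6%. NDUFA4 with NDUFA4L2 made up 8.42% and 8.11% against 7.60% and 7.93%.

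**Figure D4:**
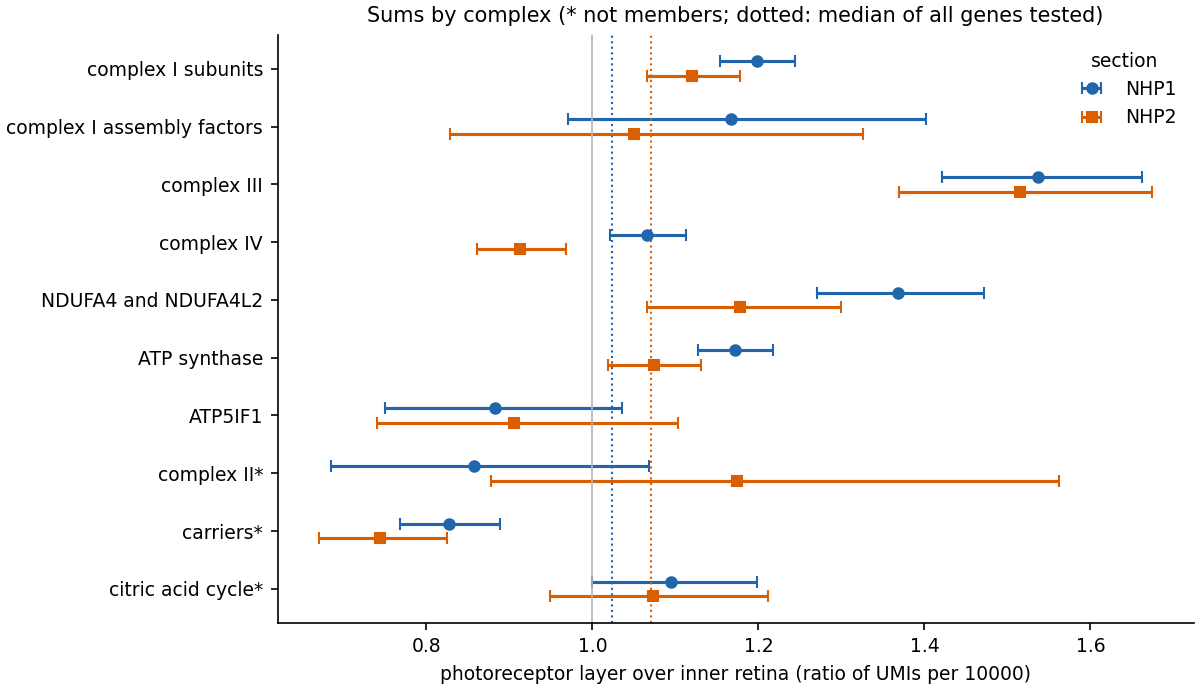
Ratio of UMIs per 10000 in the photoreceptor layer to that in the inner retina (x axis) for the sums of each complex and of complex II, the carriers and the citric acid cycle, marked with an asterisk (y axis), in NHP1 (circles) and NHP2 (squares) with 95% intervals for counting error. Dotted lines give the median over all genes measured, 1.02 and 1.07. Of the sums plotted, complex III lay highest, at 1.54 and 1.51, and the carriers lowest, at 0.827 and 0.745.

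NHP1 held 3 tissue pieces with enough retina to repeat the comparison, whereas nearly all retina of NHP2 lay in 1 piece. The summed ratio was 1.12, 1.20 and 1.21 in the pieces of NHP1 and 1.05 in that of NHP2. COX6B2 had 1.95, 2.39 and 2.64 in NHP1, and 2.78 in NHP2, although 12, 60 and 7 UMIs in the photoreceptor layer lay behind the first 3 values. UQCRH had 1.32 (0.894 to 1.92), 2.58 and 1.97 in NHP1 and 1.92 in NHP2, and NDUFB1 had 1.52, 1.69 and 1.59, and 1.60. The interval of UQCRH thus included 1 in the first piece, as did those of COX6B2 in the first (0.788 to 4.88) and the last (0.671 to 12.3). COX4I1 had 0.79, 0.865 and 1.16 in NHP1, so that its ratio was not below 1 in every piece. Pieces of 1 section share the animal and the library and are not replicates.

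Several subunits exist as isoforms from separate genes, and their shares within a pair do not depend on the total. COX6B2 made up 31.5% of COX6B1 and COX6B2 together in the photoreceptor layer of NHP1 (79 of 251 UMIs, interval 25.8% to 37.6%). The share was 16.4% in the inner nuclear layer and 10.0% in the ganglion cell layer (22 of 220, 6.37% to 14.7%). In NHP2 it was 39.2% (60 of 153, 31.4% to 47.4%), 28.0% and 7.59% (11 of 145, 3.85% to 13.2%). The photoreceptor and ganglion cell layer intervals did not overlap in either animal. In the RPE of NHP2, whose spots also held photoreceptor markers, the share was 31.8% of 22 UMIs, and in its sclera 32.0% of 25.

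The isoform pair is shown by the 250 bases before each annotated gene start on the assembly Mmul_10 (RefSeq annotation), which need not be where transcription began in these eyes. COX6B1 lies on the plus strand of chromosome 19 at chr19:35069338-35080263 and COX6B2 on the minus strand at chr19:55102041-55105943. The windows are chr19:35069088-35069337 and chr19:55105944-55106193, and that of ATP5ME, an abundant member with a ratio of 1.53 in NHP1 and 1.47 in NHP2, is chr5:675797-676046 on the minus strand. Capitals mark matches, on either strand, to 4 motifs searched: GCGCANGCG (NRF1), CCGGAAG (ETS factors such as GABP), AAGATGGC (YY1) and TAATCC (the photoreceptor factor CRX), which did not overlap one another here.
COX6B1: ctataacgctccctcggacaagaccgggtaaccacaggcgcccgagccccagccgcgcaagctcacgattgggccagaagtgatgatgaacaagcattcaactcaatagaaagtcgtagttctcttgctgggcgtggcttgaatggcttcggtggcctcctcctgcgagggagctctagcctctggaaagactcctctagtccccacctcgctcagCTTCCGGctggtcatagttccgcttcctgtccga
COX6B2: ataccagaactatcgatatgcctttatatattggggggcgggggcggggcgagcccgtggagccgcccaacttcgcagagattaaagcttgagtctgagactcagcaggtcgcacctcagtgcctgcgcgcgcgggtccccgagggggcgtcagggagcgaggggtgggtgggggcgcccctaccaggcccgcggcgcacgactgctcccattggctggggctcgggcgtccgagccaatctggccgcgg
ATP5ME: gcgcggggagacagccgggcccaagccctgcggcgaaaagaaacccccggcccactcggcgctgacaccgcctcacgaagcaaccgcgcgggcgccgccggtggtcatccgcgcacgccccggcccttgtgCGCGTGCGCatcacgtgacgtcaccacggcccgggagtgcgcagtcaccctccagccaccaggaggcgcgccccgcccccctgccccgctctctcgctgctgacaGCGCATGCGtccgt
COX6B1 held 1 ETS match, ATP5ME 2 NRF1 matches and COX6B2 none of the 4 motifs, which says only that these letters were not in this window. Of 69 members with a window, 17.4% held the NRF1 letters, against 6.13% of 20787 protein-coding genes. The ETS letters were found in 11.6% and 7.05%, those of YY1 in 2.90% and 1.38%, and those of CRX in 4.35% and 9.29%. The annotated place of COX7C, chr13:46719690-46719959, may be that of a copy, and its window was among those with the CRX letters. The median GC content was 58.8% for members and 57.2% for all genes.

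COX7A1, the isoform of subunit 7A known from heart and skeletal muscle, did not follow the summed members down to the sclera. Other members did not either in a single animal, such as NDUFAF3 in NHP1 and ATP5F1D in NHP2. In the ratio of neural retina to sclera, COX7A1 was the only 1 of 64 members below 1 in both animals. That ratio of COX7A1 was 0.703 (0.524 to 0.957) in NHP1 and 0.878 (0.625 to 1.26) in NHP2. Its level ranged from 2.82 UMIs per 10000 in the photoreceptor layer to 4.44 in the sclera of NHP1 and from 2.23 in the photoreceptor layer to 3.56 in the choroid of NHP2. The common isoform COX7A2 had 6.57 in the photoreceptor layer and 1.33 in the sclera of NHP2, and 8.82 and 7.41 in NHP1. The share of COX7A1 in the pair was therefore 24.3% (20.2% to 28.7%) in the photoreceptor layer and 37.5% (29.6% to 45.9%) in the sclera of NHP1, and 25.3% (18.7% to 32.8%) and 71.0% (58.1% to 81.8%) in those of NHP2. COX4I2, an isoform induced by low oxygen, was rare. It made up 8.15% of COX4I1 and COX4I2 in the choroid of NHP1 (11 of 135 UMIs, 4.14% to 14.1%) but 0.951% in the photoreceptor layer (5 of 526, 0.309% to 2.20%). In NHP2 it was 1 of 16 UMIs in the choroid and 2 of 280 in the photoreceptor layer.

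COX6A2, the muscle isoform of subunit 6A, had 19 UMIs in NHP1, of which 7 were in the choroid and 7 in the sclera, and 3 in NHP2, of which 2 were in the choroid and 1 in the sclera. In the photoreceptor layer it had 0 UMIs beside 233 of COX6A1 in NHP1 and 87 in NHP2. For this pair the COX6A1 row carried no symbol and was named through the gene table. Of the 3 genes that encode the same c subunit of ATP synthase, ATP5MC3 had the most UMIs in each layer, with 58.8% and 62.8% of their UMIs in the photoreceptor layer. ATP5MC2 had 24.5% and 21.1%, and ATP5MC1 had 16.7% and 16.1%.

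**Figure D5:**
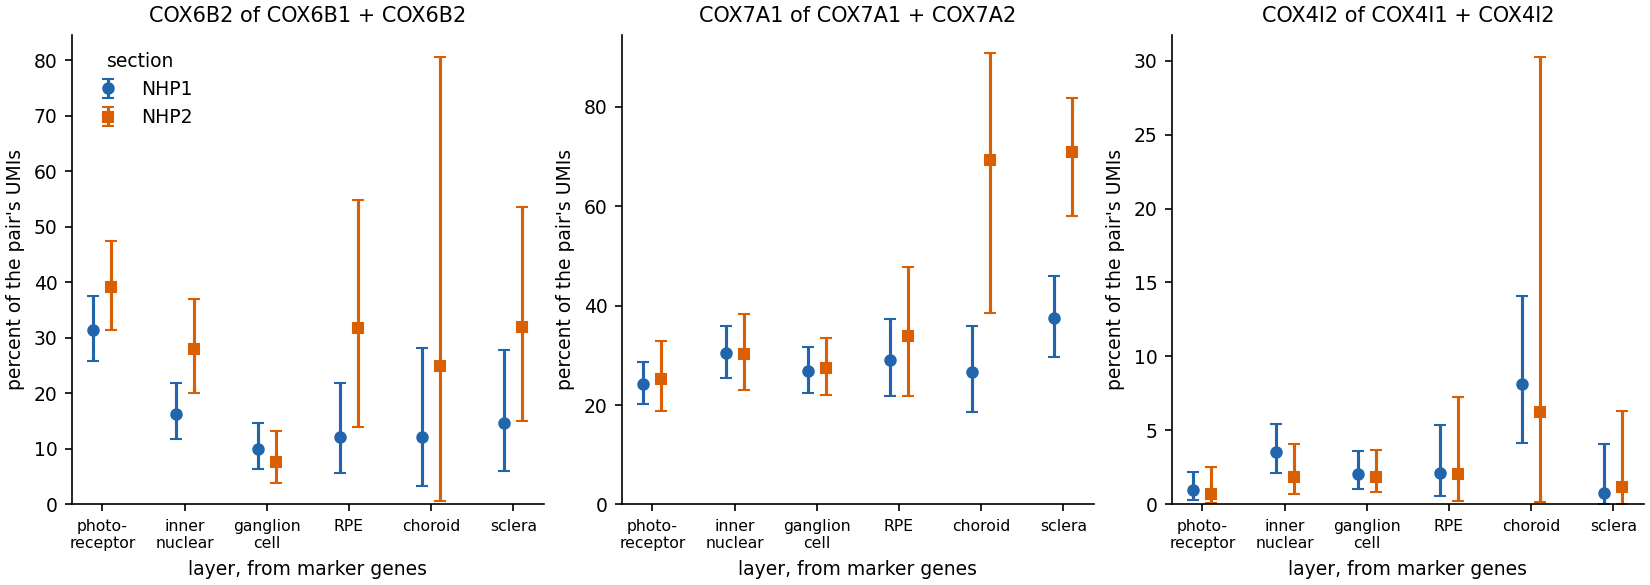
Share of COX6B2, COX7A1 and COX4I2 in the UMIs of their isoform pair (y axes, percent) in each layer (x axes) of NHP1 (circles) and NHP2 (squares), with exact 95% intervals for counting error. COX6B2 was highest in the photoreceptor layer (31.5% and 39.2%) and lowest in the ganglion cell layer (10.0% and 7.59%) and COX7A1 was highest in the sclera (37.5% and 71.0%).

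The neural retina, that is the photoreceptor, inner nuclear and ganglion cell layers together, was next compared with the sclera, a collagen-rich tissue of sparse fibroblasts. The members had 396 UMIs per 10000 in the neural retina and 236 in the sclera of NHP1, a ratio of 1.67 (1.61 to 1.74). In NHP2 they had 417 and 122, a ratio of 3.42 (3.26 to 3.60). The median over all genes was 1.32 and 1.58. In NHP1, 42 of 66 members were at least 1.5-fold higher in the neural retina, against 40.9% of all genes, and 2 were at least as much lower, against 12.2%. In NHP2, 59 of 64 members were higher, against 52.8% of all genes, and 1 was lower, against 16.9%. All 42 of NHP1 were among those of NHP2, so that 42 of 64 measured in both were higher in both, against 31.4% of all genes.

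The scleral spots of both sections carried photoreceptor marker transcripts, at 95.1 UMIs per 10000 in NHP1 and 26.5 in NHP2. Leaving out scleral spots with any photoreceptor marker UMI, an alternative chosen after seeing the data, kept 39 of 145 spots in NHP1 and 35 of 153 in NHP2. The scleral level then was 115 in NHP1 and 126 in NHP2, and the ratios were 3.43 (2.95 to 4.00) and 3.32 (2.89 to 3.83). The spots kept held 15068 of 121513 scleral UMIs in NHP1 and 15974 of 135524 in NHP2. A spot with few UMIs more easily lacks a marker UMI, so this choice also depended on depth, whose part was not tested. Within the tissue piece of NHP1 with the most UMIs the ratio was 1.27, and 22 members rather than 42 were at least 1.5-fold higher. The share of all genes was not computed for this piece, so this count cannot be set beside it.

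Among single members, NDUFA4 had 30.6 UMIs per 10000 in the neural retina and 13.0 in the sclera of NHP1 (ratio 2.36), and 32.0 and 5.39 in NHP2 (5.94). NDUFB1 had 10.7 and 5.84 in NHP1 (1.83), but 10.6 and 0.812 in NHP2 (13.1, interval 7.25 to 26.3). The highest ratios of NHP1 were those of the assembly factors NDUFAF5 (8.43) and NDUFAF4 (6.19), of UQCRC2 (3.98), of NDUFAB1, the mitochondrial acyl carrier protein (2.64), and of COX6B2 (2.52). Those of the assembly factors rested on few scleral counts, with intervals from 1.46 to 338 and from 1.67 to 51.9. The highest of NHP2 were NDUFS4 (14.3), NDUFB1, ATP5PD (11.5), NDUFB8 (9.85) and NDUFS7 (7.34). All but ATP5PD, a stalk subunit of ATP synthase, are complex I genes, as are 29 of the 64 members measured there. These also rested on few scleral counts, with 2 UMIs for NDUFS4 (interval 3.87 to 120). ATP5PD (4.41 to 42.6), NDUFB8 (3.77 to 36.6) and NDUFS7 (2.79 to 27.4) had 4 each, and NDUFB1 had 11. NDUFS7 had 0.742 in NHP1 and stood there among the 5 lowest, with NDUFAF3 (0.66), NDUFAF7 (0.664), COX7A1 (0.703) and UQCRC1 (0.81).

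The lowest in NHP2 was ATP5F1D, with 1.46 UMIs per 10000 in the neural retina and 5.39 in the sclera, a ratio of 0.272 (0.195 to 0.379). In NHP1 it had 1.74 and 1.73, a ratio of 1.01 (0.639 to 1.67). ATP5F1D overlaps a gene on the opposite strand in the RefSeq annotation, as many other members do, UQCRH, COX7C and NDUFV1 among them. The part of such overlaps in any of the values was not tested. In NHP2, ATP5F1D was followed by NDUFV1 (0.777), COX7A1 (0.878), NDUFAF3 (1.22) and NDUFB7 (1.23). By complex, complex I had ratios of 1.59 and 3.32, complex III 1.62 and 3.10, and complex IV without NDUFA4 1.56 and 3.66. ATP synthase had 1.82 and 3.16, beside 1.67 and 3.42 for all members. At least 1.5-fold higher were 15 of 30 measured genes of complex I in NHP1 and 27 of 29 in NHP2, 4 and 5 of 5 of complex III, 8 and 10 of 11 of complex IV, and 12 and 13 of 14 of ATP synthase, beside 40.9% and 52.8% of all genes. The 2 members lower in NHP1 were both assembly factors, NDUFAF3 and NDUFAF7.

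Between the animals, the members of the neural retina had 417 UMIs per 10000 in NHP2 and 396 in NHP1, a ratio of 1.05 (1.04 to 1.07), where the median of all genes was 1.03. Of 70 members, 2 were at least 1.5-fold higher in NHP2, against 8% of all genes, and 0 were as much lower, against 7.2%. The highest were NDUFS1, the largest subunit of complex I (1.57, 1.04 to 2.35), NDUFAF7 (1.52, 0.9997 to 2.32), NDUFA12 (1.47), NDUFA6 (1.44) and NDUFAF5 (1.41). The lowest were NDUFAF2 (0.714, 0.364 to 1.33), NDUFB11 (0.732), COX8A (0.741, 0.66 to 0.831), NDUFV3 (0.796) and COX4I2 (0.805). Layer by layer the ratio was 0.999 in the photoreceptor layer, 1.12 in the inner nuclear layer, 1.07 in the ganglion cell layer and 1.10 in the RPE, but 0.515 in the choroid and 0.516 in the sclera. In scleral spots without a photoreceptor marker UMI, a choice that also depended on depth, the levels were 115 in NHP1 and 126 in NHP2, with overlapping intervals. The choroid spots of the animals held different amounts of photoreceptor and sclera markers, as given above. The part of such markers and of depth in the scleral and choroid ratios was not tested.

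Other genes of the pathway were compared in the same way. The carriers, which bring phosphate, adenine nucleotides, small metabolites and electrons to the complexes and of which 7 of 8 were in the features, had a summed ratio of photoreceptor layer to inner retina of 0.827 in NHP1 (0.769 to 0.889) and 0.745 in NHP2 (0.671 to 0.825). VDAC1, the main pore of the outer membrane, had 5.13 UMIs per 10000 against 10.6 in NHP1 (0.484) and 4.79 against 10.1 in NHP2 (0.473). It was the only carrier at least 1.5-fold lower in both, with VDAC3 at 0.71 and 0.628. VDAC1 also had the most UMIs of the carriers in the inner retina (641 and 365) and so weighed most in their sum there. The median ratio over the carriers measured was 0.952 in NHP1 and 0.779 in NHP2. CYCS, cytochrome c, which carries electrons from complex III to complex IV, had 1.09 in both. Complex II, which passes electrons from succinate, had 0.857 (0.685 to 1.07) and 1.17 (0.878 to 1.56), with SDHC at 0 UMIs in these layers. Whether the 0 of SDHC reflects the tissue or the annotation was not tested. Of 14 citric acid cycle genes, 13 and 11 had enough UMIs, and only FH (1.53, 0.95 to 2.45) reached 1.5-fold, in NHP1. MDH2, malate dehydrogenase, had 1.47 (1.18 to 1.82) and 1.498 (1.15 to 1.95). Of the 8 regulators, which include the factors NRF1, TFAM and ESRRA, only ESRRA and YY1 in NHP1 had at least 50 UMIs, at 0.786 (0.458 to 1.31) and 1.05 (0.578 to 1.85). Summed over the 8, the regulators had a ratio of 1.12 (0.836 to 1.49) in NHP1 and 1.52 (1.03 to 2.23) in NHP2, where each of them had under 50 UMIs.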

How the data were processed

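Visium libraries of 2 posterior eyecup sections were analysed. The deposited tables hold raw UMI counts per feature and spot, which the authors made with Space Ranger 2.1.0 on Mmul_10 with the transgene sequences added. The deposited table of Moran's I holds a spatial score per gene that the authors computed, and it was used as given. The deposited spot positions give whether a spot lay under tissue and its place on the array. Sections were grouped by animal from their titles.

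Tissue spots were given to a layer where its fixed markers had at least 3 UMIs and a share at least 1.5 times that of the section, the highest ratio being taken. Levels are summed UMIs per 10000 UMIs. Ratios of levels have exact conditional binomial 95% intervals, and shares and levels exact Clopper-Pearson intervals, all for counting error only. A gene was counted as higher or lower at 1.5-fold, if it had at least 50 UMIs over both groups. With 1 section per animal no p-value was computed. A count of 0 was taken to allow 3 UMIs. Genes named in the text were the 10 members with most UMIs, the 5 highest and 5 lowest of each comparison, the isoform pairs and ATP5IF1, and beyond these, members chosen after their values were seen. One gene that this rule names is not reported here. The members and lists were chosen with earlier results of these data known.

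Alternatives changed the total, spot and count minimums, layers (Leiden clusters, resolution 1), tissue pieces and members. Python 3.11.15, numpy 2.4.6, scipy 1.17.1, pandas 2.3.3, scanpy 1.11.5, leidenalg 0.10.2 and matplotlib 3.10.9 were used, and the scripts were tested on simulated counts.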

Additional observations from a re-analysis of the deposited data

Results flagged for a closer look

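Spots outside the tissue also held transcripts of the members. Their summed level there was 343 UMIs per 10000 in NHP1 (4284 spots, 523115 UMIs) and 366 in NHP2 (4027 spots, 76907 UMIs), close to the 369 and 348 under tissue, and these spots entered no comparison. The part that RNA spread from tissue to neighboring spots played in the layer values was not tested.

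Rows without a symbol in the tables were named through the gene table and, having no symbol, were not among the members. COX6A1, the common isoform of complex IV subunit 6A, had 731 tissue UMIs in NHP1 and 275 in NHP2. NDUFA11, a complex I subunit, had 374 and 187. COX6A1 had 6.72 UMIs per 10000 in the photoreceptor layer and 3.46 in the sclera of NHP1, and 4.84 and 0.443 in NHP2.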

How the results depend on the processing

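Of 281 alternative values, 205 moved by less than the counting error or by less than 1.5-fold for counts, 74 moved by more and 2 changed direction. Per spot instead of per 10000 UMIs, the ratio of photoreceptor layer to inner retina changed direction, to 0.873 in NHP1 and 0.709 in NHP2, while neural retina over sclera became 8.49 and 36.0. Using only spots with at least 200 UMIs moved none of 43 values. The share of all genes past 1.5-fold was not computed under the alternatives. The counts of members below therefore do not tell whether the members or all genes shifted.

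With mitochondrially encoded genes and the 50 most abundant genes left out of the total, the ratio of photoreceptor layer to inner retina was 1.03 in NHP2, that of NHP2 to NHP1 was 1.02, and 1 member was higher in NHP2. Levels from photoreceptor layer, inner nuclear layer, ganglion cell layer, RPE and choroid to sclera were 531, 416, 505, 422, 365 and 293 in NHP1 and 502, 443, 528, 458, 182 and 149 in NHP2. With mitochondrially encoded genes alone left out, chosen after seeing the data, the ratio was 1.14 and 1.02, and photoreceptor and ganglion cell layer levels were 465 and 446 in NHP1, with 473 in the ganglion cell layer of NHP2.

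With Leiden clusters as layers, which gave the marker-based layer to 331 of 468 and 193 of 282 spots, the ratio of photoreceptor layer to inner retina in NHP1 was 1.09, with 6 members higher and 1 lower. No cluster of NHP1 was given to the inner nuclear layer, so its inner retina was here the ganglion cell layer alone. No cluster of NHP2 was given to the photoreceptor or ganglion cell layer. The ratio of photoreceptor layer to inner retina could therefore not be computed for NHP2, whose neural retina was here the inner nuclear layer alone. The neural retina thus meant different layers in the animals, and the values that follow do not repeat the marker-based comparisons. Neural retina over sclera was 1.59 and 3.15, NHP2 over NHP1 was 1.02 with 1 member higher, and levels were 409 in the photoreceptor layer, 374 in the ganglion cell layer, 223 in the choroid and 247 in the sclera of NHP1, and 402 in the inner nuclear layer, 433 in the RPE and 197 in the choroid of NHP2. With at least 10 marker UMIs per spot the choroid had 338 and 174.

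In the piece with the most UMIs, neural retina over sclera in NHP1 was 1.27 with 22 members higher and 4 lower, and levels were 339 in the inner nuclear layer, 384 in the ganglion cell layer, 332 in the choroid and 306 in the sclera. In NHP2, 1 member was lower in the photoreceptor layer, 2 were lower in the neural retina than in the sclera, 0 were higher than in NHP1, and the photoreceptor layer had 429. Piece by piece in NHP1, chosen after seeing the data, the ratio was 1.12 in piece 1 and 1.21 in piece 3. Sclera spots without a photoreceptor marker UMI, chosen likewise, gave 3.43 and a scleral level of 115 in NHP1.

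With only subunits, levels in NHP1 were 421, 334, 376, 323, 292 and 225 in the same order of layers, and in NHP2 418 in the photoreceptor layer, 371 in the inner nuclear layer, 400.1 in the ganglion cell layer and 116 in the sclera. In NHP1, 0 members were then lower in the neural retina than in the sclera, and 1 was higher in NHP2 than in NHP1. With at least 200 UMIs over both groups, 3 members were higher and 1 lower in the photoreceptor layer of NHP2, 0 were lower in the neural retina than in the sclera in either animal, and 0 were higher in NHP2. With at least 1 UMI in each group, 1 member in NHP1 and 5 in NHP2 were lower in the photoreceptor layer, and 1 was lower in NHP2 than in NHP1. Except where the alternative itself uses fewer genes or spots, the cause was not tested. No paired analysis was possible because each animal gave 1 section. The choroid of NHP2 held the fewest UMIs of all layers (25306), which left wide intervals for its isoform shares.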
